A study of Mus musculus with 6 samples.

Results

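The genes examined here were 36 genes that make cholesterol and fatty acids or that control and export these lipids, of the 19342 genes counted in islets of FXR-/- and FXR+/+ mice. They were chosen by gene symbol, not by a cutoff on their values, but with earlier results of these data known. All 36 were found in the gene table and passed the filter on low counts that left 14619 genes for testing. By role they were 6 enzymes of the mevalonate branch (*Hmgcs1*, *Mvk*, *Pmvk*, *Mvd*, *Idi1* and *Fdps*), 11 enzymes of the sterol branch (*Fdft1*, *Sqle*, *Lss*, *Cyp51*, *Tm7sf2*, *Msmo1*, *Nsdhl*, *Hsd17b7*, *Ebp*, *Sc5d* and *Dhcr7*), 7 genes of the SREBP system, sterol handling and carbohydrate sensing (*Insig1*, *Insig2*, *Scap*, *Srebf1*, *Srebf2*, *Stard4* and *Mlxipl*), 4 of fatty acid synthesis (*Acly*, *Acaca*, *Acacb* and *Fasn*), 6 of desaturation and elongation (*Scd1*, *Scd2*, *Elovl5*, *Elovl6*, *Fads1* and *Fads2*) and 2 of sterol export (*Abca1* and *Abcg1*).

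FXR, encoded by *Nr1h4*, is a nuclear receptor for bile acids, and in liver its activation lowers *Srebf1* and lipid synthesis, in part through the repressor SHP (*Nr0b2*). Cells build cholesterol from acetyl-CoA through mevalonate and squalene, and fatty acids from acetyl-CoA through malonyl-CoA. Both routes are switched on by the SREBP transcription factors, which SCAP carries out of the endoplasmic reticulum when sterols are scarce and which INSIG proteins hold back when sterols are plentiful. Beta cells also use glucose carbon for lipid synthesis, with ChREBP (*Mlxipl*) as a carbohydrate-responsive transcription factor.

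Islets were isolated with collagenase P from the pancreas of C57Bl/6 FXR-/- mice and of FXR+/+ controls, all labelled as 3 months old, and mRNA was enriched by its poly(A) tail before sequencing. Each genotype had 3 libraries, 1 from female mice (female 1) and 2 from male mice (male 1 and male 2). No treatment of the mice is given, and it is not stated whether each library stands for 1 mouse or a pool, so p-values measure only the spread between these libraries, which may be partly technical.

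The libraries held between 20629306 and 30139235 counts. As a check of the labels, *Nr1h4* had 14.2, 13.6 and 12.2 CPM (read counts relative to library size, after TMM scaling) in the FXR+/+ libraries female 1, male 1 and male 2, and 5.67, 7.63 and 5.81 CPM in the FXR-/- libraries in the same order. Every FXR-/- library was below every FXR+/+ library, and the log2 fold change was -1.07 (SE 0.160, adjusted p = 0.217 by edgeR's quasi-likelihood test). *Nr1h4* was called with the replicate number as a block (adjusted p = 0.0441 by edgeR) and by DESeq2 (adjusted p = 8.59e-05). *Nr0b2* was close to the detection limit in all libraries, at 0.221 to 1.73 CPM. Acinar transcripts took 5.12% to 14.9% of a library's raw counts and were highest in the male 1 library of both genotypes, beta cell markers took 19.2% to 25.7%, and alpha cell markers took 4.04% and 4.12% in the female libraries against 2.28% to 2.70% in the male libraries. The 36 genes together took 0.350% to 0.457% of the counts of a library, 3645 to 4348 CPM in FXR+/+ and 3873 to 4013 CPM in FXR-/- islets.

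The levels of the 36 genes were compared per length, as CPM per kb of annotated exons. *Acly*, which makes cytosolic acetyl-CoA from citrate and so feeds both routes, stood highest at 356 ± 33.8 CPM per kb (SD over all 6 libraries). The next was *Mlxipl* at 69.9 ± 11.5 CPM per kb, 5.10-fold below *Acly*, followed by *Elovl5* at 52.5 ± 4.94 and *Insig1* at 52.1 ± 6.60 CPM per kb. At the other end were *Scd1* at 1.73 ± 0.293, *Hsd17b7* at 1.17 ± 0.148 and *Acacb* at 0.846 ± 0.307 CPM per kb, a range of 421-fold between *Acly* and *Acacb*. Of the 35 neighbouring pairs in this order, only 4 had libraries that did not overlap: *Acly* above *Mlxipl*, *Mlxipl* above *Elovl5*, *Insig2* above *Fdft1*, and *Stard4* above *Scd1*. The other 31 neighbours were not separated beyond the spread of their libraries. The coefficient of variation over the 6 libraries ran from 6.19% for *Scap* to 36.3% for *Acacb*, with a median of 13.2%.

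**Figure D1:**
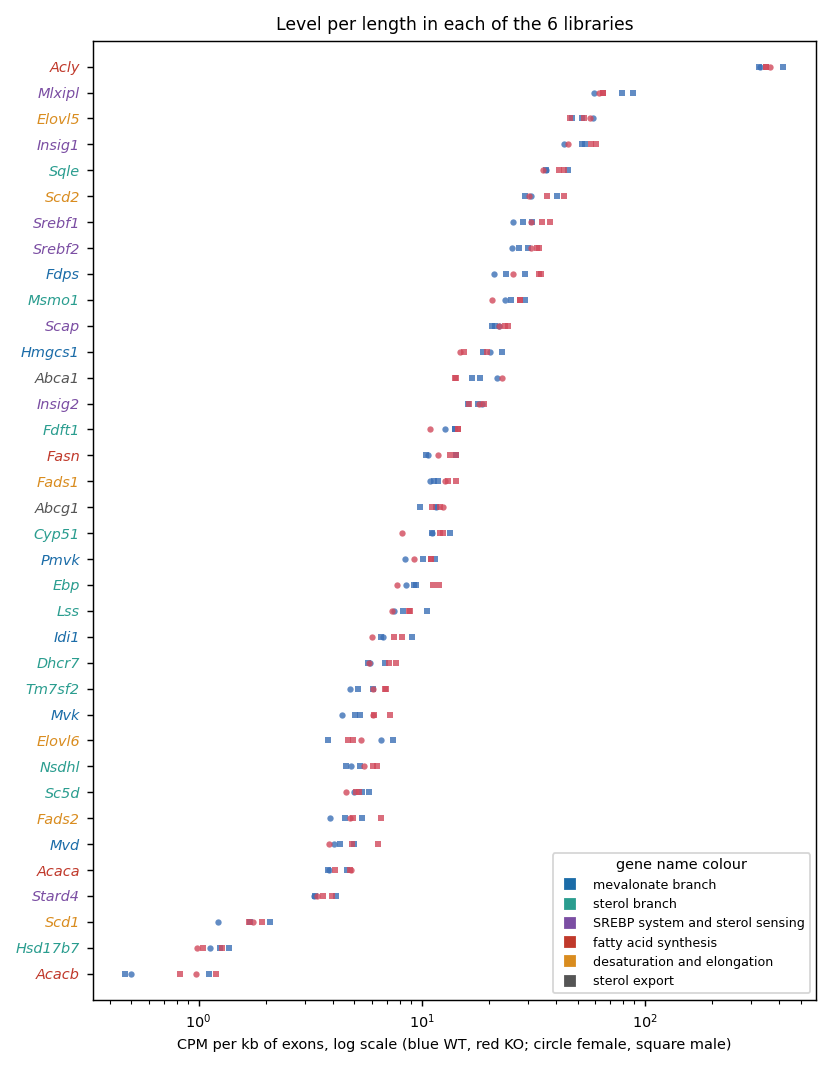
Level per length of each of the 36 genes, in CPM per kb of exons on a log scale, with 1 point per library (blue FXR+/+, labelled WT; red FXR-/-, labelled KO; circles female, squares male) and gene names coloured by role. *Acly* sits 5.10-fold above the next gene and *Acacb* is lowest, at 0.846 CPM per kb on average.

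Within a role the levels differed widely as well. In the mevalonate branch *Fdps* was highest (27.9 CPM per kb) and *Mvd* lowest (4.73 CPM per kb), and in the sterol branch *Sqle*, the squalene epoxidase, was highest (39.6 CPM per kb) and *Hsd17b7* lowest. Among the desaturases the islets held mainly *Scd2* (35.2 CPM per kb), while *Scd1*, the main form in liver and fat, stood at 1.73 CPM per kb. Of the acetyl-CoA carboxylases *Acaca*, the cytosolic form, had 4.32 CPM per kb and *Acacb*, the mitochondrial form, 0.846 CPM per kb. The lengths came from all protein-coding basic transcripts of a gene in GENCODE vM21, so a gene that uses only its short transcripts is understated on this scale.

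Sequences upstream of the start sites are shown for *Hmgcs1*, the gene with the lowest log2 fold change between genotypes, and for the 3 genes without overlap between genotypes that had a window in RefSeq (GRCm38.p6), 250 bases before to 50 bases after the start. Capitals mark matches, on either strand, to 3 letter patterns: TCACNCCAC (a form of the sterol regulatory element, to which SREBPs bind), CACGTG (an E-box) and CCAAT (the NF-Y motif). The reverse complement of CCAAT reads ATTGG, and CACGTG reads the same on both strands.
Hmgcs1, chr13:119690101-119690400, plus strand: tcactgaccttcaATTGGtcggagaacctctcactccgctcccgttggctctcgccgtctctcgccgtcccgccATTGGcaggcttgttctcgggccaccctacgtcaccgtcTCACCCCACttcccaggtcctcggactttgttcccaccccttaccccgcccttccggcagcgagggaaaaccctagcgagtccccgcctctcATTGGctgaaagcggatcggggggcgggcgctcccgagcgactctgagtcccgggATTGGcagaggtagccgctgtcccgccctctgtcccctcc
Mvk, chr5:114444019-114444318, plus strand: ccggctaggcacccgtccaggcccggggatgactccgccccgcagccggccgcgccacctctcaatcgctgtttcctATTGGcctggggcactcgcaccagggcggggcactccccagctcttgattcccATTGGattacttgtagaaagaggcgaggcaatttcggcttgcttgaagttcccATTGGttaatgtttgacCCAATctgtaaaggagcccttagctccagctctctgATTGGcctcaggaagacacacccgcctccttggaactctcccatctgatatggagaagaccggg
Nsdhl, chrX:72918271-72918570, plus strand: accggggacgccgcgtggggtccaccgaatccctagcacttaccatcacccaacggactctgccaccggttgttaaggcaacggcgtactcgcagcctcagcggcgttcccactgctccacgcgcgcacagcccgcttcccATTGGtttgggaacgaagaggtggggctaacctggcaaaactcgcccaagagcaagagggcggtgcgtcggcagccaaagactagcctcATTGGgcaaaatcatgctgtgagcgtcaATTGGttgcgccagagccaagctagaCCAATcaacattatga
Srebf2, chr15:82147019-82147318, plus strand: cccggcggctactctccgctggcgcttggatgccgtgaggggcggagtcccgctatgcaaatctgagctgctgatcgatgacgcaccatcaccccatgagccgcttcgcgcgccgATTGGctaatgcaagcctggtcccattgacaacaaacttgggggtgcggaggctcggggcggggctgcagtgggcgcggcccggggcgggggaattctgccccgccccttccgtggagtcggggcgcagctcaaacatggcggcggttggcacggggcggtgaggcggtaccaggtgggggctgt

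The window of *Hmgcs1* held the sterol regulatory element letters, beginning 137 bases before the start, and 4 NF-Y motifs. That of *Mvk* held 5 NF-Y motifs, that of *Nsdhl* 4 and that of *Srebf2* 1, without a match to the other patterns. Windows were found for 28 of the 36 genes, 37 windows in all. *Fdps*, *Fdft1*, *Sqle*, *Stard4*, *Scd1*, *Scd2*, *Fads1* and *Abcg1* had none. CCAAT or its reverse complement occurred in 24 of the 37 windows (64.9%) and in 37.4% of the 32851 windows of all genes. CACGTG occurred in 9 of the 37 windows (24.3%) against 7.15% of all, and TCACNCCAC in 2 (5.41%), those of *Hmgcs1* and *Mlxipl*, against 1.24% of all. These are exact letter matches, so an element that differs by 1 base is not counted, and no binding was measured.

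Between the genotypes, 0 of the 36 genes passed the threshold of 0.05 on the adjusted p when edgeR was fitted with sex beside genotype, as did 0 of all 14619 genes (0.00%). With the replicate number as a block, 0 of the 36 were called against 23 of all genes (0.157%), and with DESeq2 0 of the 36 against 170 of 14052 (1.21%). The unadjusted p of edgeR was below 0.05 for 8 of the 36 (22.2%), 7 with higher and 1 with lower values in FXR-/- islets, against 10.3% of all genes. By the sign of the fold change, 23 of the 36 were higher in FXR-/- islets (63.9%, against 51.6% of all genes), and the median log2 fold change was 0.12, against 0.0084 over all genes tested. When libraries were scaled by size alone these medians were 0.021 and -0.087, with 19 of the 36 higher, so the median of the 36 stayed above that of all genes by about the same amount while its own level moved toward 0.

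No overlap between FXR+/+ and FXR-/- libraries was seen in 4 of the 36 genes, *Mvk*, *Nsdhl*, *Srebf2* and *Fads1*, all higher in FXR-/- islets (11.1%, against 8.02% of all genes), and in 0 genes in the other direction (7.37% of all genes). In each of the 3 pairs of libraries with the same number, 12 of the 36 were higher in FXR-/- islets (33.3%, against 20.4% of all genes) and 1, *Sc5d*, was lower (2.78%, against 18.9%). Under TMM scaling, the precision was enough to bound most differences between these libraries. The 95% interval of the fold change excluded a 2-fold change in either direction for 35 of the 36 genes and a 1.5-fold change for 31. The exception to the former was *Acacb*. In bulk islets fewer cells of a type and less RNA per cell cannot be told apart.

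**Figure D2:**
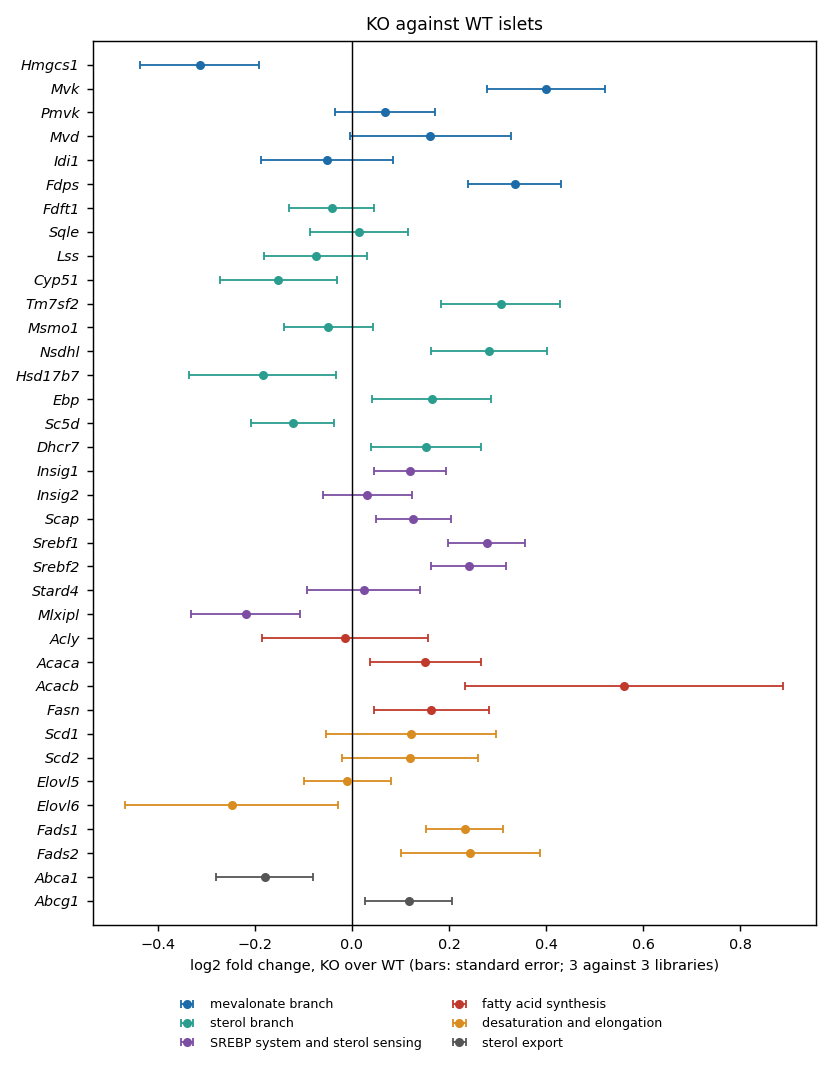
Log2 fold change of each of the 36 genes in FXR-/- (KO) over FXR+/+ (WT) islets, coloured by role, with bars for the standard error from edgeR's fit with a term for sex (3 against 3 libraries). Of the 36 points 23 lie above 0, and none reached an adjusted p under 0.05.

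Among the enzymes of the mevalonate branch the values went both ways. *Hmgcs1* (chr13:119690379-119708260, plus strand), which condenses acetyl-CoA and acetoacetyl-CoA to HMG-CoA, had 70.3, 65.7 and 79.9 CPM in the FXR+/+ libraries (female 1, male 1, male 2) and 51.8, 68.7 and 53.8 CPM in the FXR-/- libraries in the same order. The female 1 and male 2 libraries of FXR-/- islets were the lowest of the 6, while male 1 lay among the FXR+/+ values. The log2 fold change was -0.31 (SE 0.123, adjusted p = 0.464, unadjusted p = 0.036 by edgeR), the lowest of the 36 genes. *Mvk* (chr5:114444269-114460591, plus strand), mevalonate kinase, had 8.74, 10.1 and 10.6 CPM in FXR+/+ and 12.1, 12.3 and 14.3 CPM in FXR-/- islets. All FXR-/- libraries were above all FXR+/+ libraries, and the log2 fold change was 0.40 (SE 0.121, adjusted p = 0.430, unadjusted p = 0.012 by edgeR). For this gene and the other 3 without overlap, the exact permutation test over the libraries gave p = 0.1, the smallest that 3 libraries against 3 allow.

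*Fdps* (chr3:89093588-89101959, minus strand), which makes farnesyl diphosphate, the branch point to sterols, dolichol and protein prenylation, had 30.6, 34.7 and 42.1 CPM in FXR+/+ and 37.5, 49.6 and 48.7 CPM in FXR-/- islets. The groups overlapped, but within each numbered pair the FXR-/- library was higher. Its log2 fold change was 0.34 (SE 0.0954, adjusted p = 0.410, unadjusted p = 0.0089 by edgeR). *Fdps* shares up to 197 bases of exon with *Gm43738* on the same strand, and its listed exons held only 4.66% of its gene counts, and reads within the shared bases cannot be assigned to either gene. *Mvd*, the decarboxylase that makes isopentenyl diphosphate, had 7.12, 8.72 and 7.54 CPM in FXR+/+ and 6.72, 11.2 and 8.54 CPM in FXR-/- islets, with overlapping groups. *Pmvk* (log2 fold change 0.07) and *Idi1* (-0.05), which phosphorylates mevalonate phosphate and isomerises isopentenyl diphosphate, respectively, also overlapped between the genotypes.

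**Figure D3:**
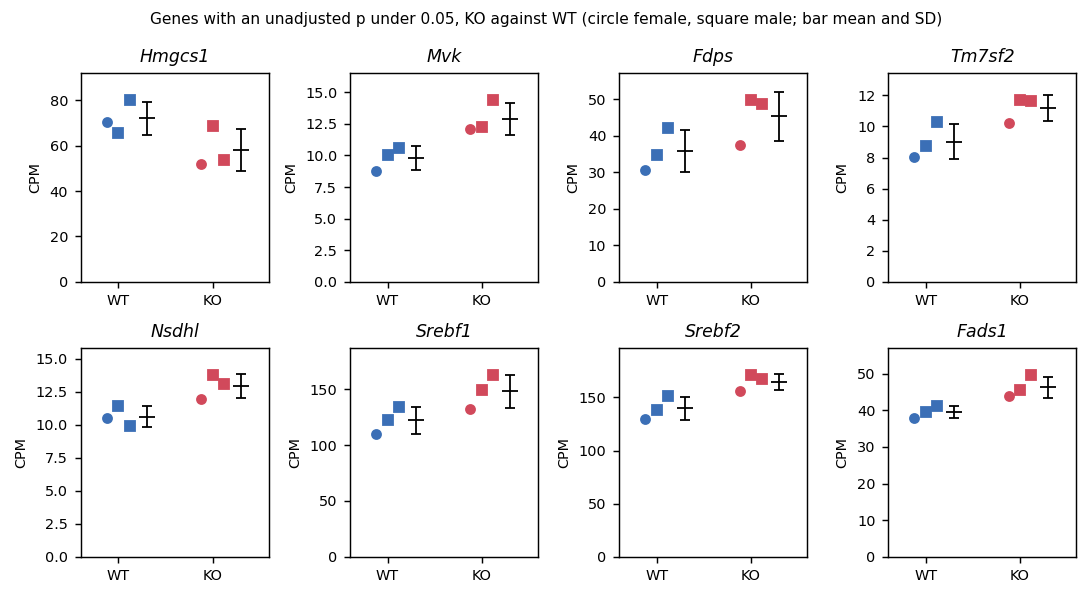
Level of the 8 genes with an unadjusted p under 0.05, in CPM from 0, with 1 point per library (circles female, squares male) and the mean and SD of 3 libraries beside them. *Hmgcs1* has lower mean values in FXR-/- (KO) islets and the other 7 higher, and only *Mvk*, *Nsdhl*, *Srebf2* and *Fads1* have libraries that do not overlap between the genotypes.

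The sterol branch was divided, with 5 genes above and 6 below 0 and a median log2 fold change of -0.04. *Nsdhl* (chrX:72918557-72958514, plus strand), which takes part in removing the methyl groups at C-4 of the sterol ring, had 10.5, 11.4 and 9.91 CPM in FXR+/+ and 12.0, 13.7 and 13.1 CPM in FXR-/- islets. The groups did not overlap, and the log2 fold change was 0.28 (SE 0.119, adjusted p = 0.480, unadjusted p = 0.047 by edgeR). *Tm7sf2* (chr19:6062821-6068373, minus strand), a sterol C-14 reductase, had 8.06, 8.77 and 10.3 CPM in FXR+/+ and 10.2, 11.7 and 11.6 CPM in FXR-/- islets. Only its highest FXR+/+ and lowest FXR-/- libraries crossed, at 10.3 and 10.2 CPM, and the log2 fold change was 0.31 (SE 0.123, adjusted p = 0.472, unadjusted p = 0.040 by edgeR).

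The most abundant gene of the sterol branch, *Sqle*, had 100.03, 99.96 and 125 CPM in FXR+/+ and 96.3, 114 and 119 CPM in FXR-/- islets, with a log2 fold change of 0.01 (SE 0.10). The least abundant, *Hsd17b7*, a sterol 3-keto reductase, had 5.67, 6.29 and 6.91 CPM in FXR+/+ and 4.94, 6.42 and 5.30 CPM in FXR-/- islets, with a log2 fold change of -0.18 (SE 0.152). Neither separated the genotypes. *Sc5d*, which sets the C-5 double bond, was the gene that was lower in all 3 pairs, with 24.3, 26.3 and 28.3 CPM in FXR+/+ and 22.3, 25.5 and 24.7 CPM in FXR-/- islets (log2 fold change -0.12, SE 0.0858, adjusted p = 0.595 by edgeR). The remaining 6, *Fdft1*, *Lss*, *Cyp51*, *Msmo1*, *Ebp* and *Dhcr7*, had log2 fold changes between -0.15 (*Cyp51*) and 0.16 (*Ebp*), each with overlapping groups. The FXR-/- female 1 library was the lowest of the 6 for 8 of the 11 genes of this branch, against 15.02% of all genes. The highest was FXR+/+ male 2 for 6, against 21.1% of all genes, and FXR-/- male 1 for 5, against 24.6%. *Fdft1*, squalene synthase, shares up to 774 bases of exon with *Ctsb* on the opposite strand and *Cyp51* 166 bases with *Akap9*, and reads of such pairs cannot be told apart without strand.

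**Figure D4:**
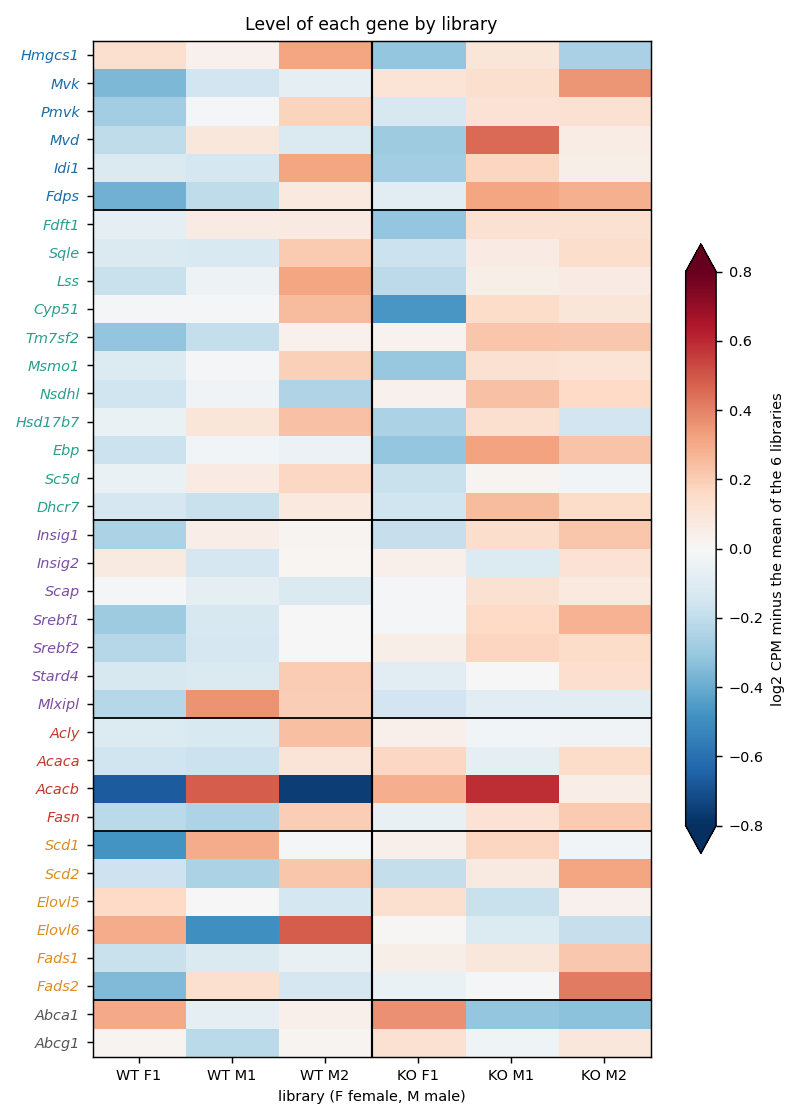
Level of each gene in each library, as log2 CPM minus the mean of that gene over the 6 libraries (red higher, blue lower; WT is FXR+/+, KO is FXR-/-), with genes grouped and coloured by role. The female 1 columns are mostly blue in the mevalonate and sterol rows, FXR-/- female 1 being lowest for 8 of 11 sterol genes.

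Of the 7 genes of the SREBP system and sterol and carbohydrate sensing, 6 had log2 fold changes above 0, with a median of 0.12, and both SREBP genes were among those with an unadjusted p under 0.05. *Srebf1* (chr11:60199089-60222581, minus strand), whose product drives mainly fatty acid synthesis, had 110, 123 and 134 CPM in FXR+/+ and 133, 150 and 162 CPM in FXR-/- islets. The groups met at 133 to 134 CPM, and within each pair the FXR-/- library was higher by a similar log2 ratio (0.27, 0.29 and 0.28). The log2 fold change was 0.28 (SE 0.0792, adjusted p = 0.410, unadjusted p = 0.0090 by edgeR). The DESeq2 adjusted p of *Srebf1*, 0.122, was the lowest of the 36 genes in any comparison of the genotypes. *Srebf2* (chr15:82147181-82205379, plus strand), whose product drives mainly cholesterol synthesis, had 129, 138 and 151 CPM in FXR+/+ and 156, 171 and 167 CPM in FXR-/- islets. Its groups did not overlap (log2 fold change 0.24, SE 0.0770, adjusted p = 0.430, unadjusted p = 0.016 by edgeR).

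The gene of this group with a negative value was *Mlxipl* (chr5:135089890-135138382, plus strand), with 214, 321 and 287 CPM in FXR+/+ and 225, 236 and 237 CPM in FXR-/- islets. The FXR+/+ female 1 library was the lowest of all 6, so that the groups overlapped, and both male pairs were lower in FXR-/- islets (log2 fold change -0.22, SE 0.113, adjusted p = 0.510 by edgeR). *Stard4*, a cytosolic sterol carrier, had 17.1, 17.3 and 21.5 CPM in FXR+/+ and 17.6, 18.7 and 20.6 CPM in FXR-/- islets (log2 fold change 0.02, SE 0.116). The sterol sensor pair *Insig1* (0.12) and *Insig2* (0.03) and the SREBP escort *Scap* (0.13) also had overlapping groups.

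In fatty acid synthesis, *Acly* (chr11:100476353-100528000, minus strand) had 1520, 1505 and 1932 CPM in FXR+/+ and 1684, 1610 and 1605 CPM in FXR-/- islets. The FXR+/+ male 2 library was the highest and the other 5 lay between 1505 and 1684 CPM, with a log2 fold change of -0.01 (SE 0.171, adjusted p = 0.977 by edgeR). *Fasn*, fatty acid synthase, and *Acaca* had log2 fold changes of 0.16 (SE 0.118) and 0.15 (SE 0.114), with overlapping groups. *Acacb*, the lowest of the 36 genes in level per length and the highest in log2 fold change, had 4.39, 9.76 and 4.14 CPM in FXR+/+ and 8.55, 10.5 and 7.24 CPM in FXR-/- islets. The male 1 libraries were the highest of both genotypes, as they were in acinar RNA, whose part in the values of *Acacb* was not tested. The log2 fold change of 0.56 (SE 0.328, adjusted p = 0.544 by edgeR) became 1.03 without FXR+/+ male 1 (adjusted p = 0.201 by edgeR).

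Among the desaturases and elongases, *Fads1* (chr19:10182888-10196877, plus strand), the delta-5 desaturase of polyunsaturated fatty acids, had 37.8, 39.5 and 41.1 CPM in FXR+/+ and 44.0, 45.4 and 49.5 CPM in FXR-/- islets. The groups did not overlap, and the log2 fold change was 0.23 (SE 0.0787, adjusted p = 0.444, unadjusted p = 0.020 by edgeR). *Elovl5*, an elongase of polyunsaturated fatty acids, had 163, 145 and 132 CPM in FXR+/+ and 159, 129 and 149 CPM in FXR-/- islets (log2 fold change -0.01, SE 0.0887). *Scd1* had 5.92, 10.1 and 8.21 CPM in FXR+/+ and 8.47, 9.31 and 8.12 CPM in FXR-/- islets (log2 fold change 0.12, SE 0.175). *Scd2* (0.12), *Fads2*, the delta-6 desaturase (0.24), and *Elovl6*, which extends saturated chains (-0.25), had overlapping groups as well, and *Elovl6* stood at 0.060 without FXR+/+ male 2.

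Of the sterol exporters, *Abca1*, which loads cholesterol onto apolipoprotein A-I, had 225, 173 and 187 CPM in FXR+/+ and 235, 147 and 146 CPM in FXR-/- islets. The female libraries were the highest of both genotypes, and the log2 fold change between genotypes was -0.18 (SE 0.0997, adjusted p = 0.534 by edgeR). *Abcg1*, which exports cholesterol to HDL, had 78.9, 66.9 and 78.9 CPM in FXR+/+ and 84.9, 76.0 and 82.8 CPM in FXR-/- islets (log2 fold change 0.12, SE 0.0895). It was higher in FXR-/- islets in all 3 pairs, with overlapping groups.

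A further 42 genes of the same pathways were followed by counts, of which 41 were in the table and tested. Higher values in FXR-/- islets were found for 26 and lower values for 15, the median log2 fold change being 0.05, and 0 were called by edgeR, with the replicate block or by DESeq2. The only one of the 41 for which edgeR gave an unadjusted p under 0.05, against 10.3% of all genes, was *Dgat2*, which makes triglyceride from diacylglycerol. *Dgat2* had 5.54, 4.96 and 4.10 CPM in FXR+/+ and 3.36, 2.47 and 2.31 CPM in FXR-/- islets, so that the groups did not overlap (log2 fold change -0.85, SE 0.180, adjusted p = 0.285, unadjusted p = 0.0019 by edgeR). Groups without overlap were also found for *Acss2*, *Lpcat3*, *Mylip* and *Ch25h*, which were higher, and *Elovl2*, which was lower, in FXR-/- islets. With *Dgat2* that was 6 of the 41 (14.6%), against 15.4% of all genes in either direction. These 5 were picked out after their values were seen.

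The exon table was used to ask whether the gene values held along the transcripts. It listed 446 exons of the 36 genes, of which 88 passed the filter, at least 1 for each gene. By edgeR 0 of the 88 reached an adjusted p under 0.05, against 5 of 26998 exons (0.0185%), and 15 (17%) had an unadjusted p under 0.05, against 7.79% of all exons. Exon counts added up to between 4.66% and 90.0% of the gene counts (median 45.2%), and a median of 90.4% of them lay in the longest exon of a gene.

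Of the 4 tested exons of *Srebf1*, the pair with the most counts had positive values and the pair with 5 to 23 counts in a library had log2 fold changes of -0.22 (SE 0.420) and -0.13 (SE 0.367). The one at chr11:60206838-60207257 was covered by 263, 281 and 389 reads in FXR+/+ and by 350, 320 and 382 in FXR-/- islets (log2 fold change 0.34, SE 0.129), and the last exon, at chr11:60199084-60200151, had a log2 fold change of 0.34 (SE 0.149). The listed first exon, at chr11:60220453-60220627, held only 3 to 7 counts in any library, and exons of other annotated starts of *Srebf1* were not analysed here. *Hmgcs1* was uneven: its last exon, at chr13:119706389-119708260, was covered by 844, 632 and 1346 reads in FXR+/+ and by 621, 622 and 581 in FXR-/- islets (log2 fold change -0.41, SE 0.161), while the exon at chr13:119699664-119700121, which overlaps an antisense gene, had a log2 fold change of 0.10 (SE 0.205). For *Fdps* the 1 tested exon had a log2 fold change of 0.11 (SE 0.270), against 0.34 for the gene. *Mlxipl* had 10 tested exons, 9 with log2 fold changes below 0, from -1.06 to 0.27. Its listed first exon, at chr5:135106891-135107215, had a log2 fold change of -0.09 (SE 0.161) and its last, at chr5:135137242-135138382, one of -0.35 (SE 0.142).

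For 21 of the genes the last exon could be set beside other exons. The other exons had the higher log2 fold change in 17 of the 21, with a median of 0.13 against -0.02 for the last exon. In *Scap* the values were 0.46 and -0.14, in *Insig1* 0.57 and 0.07, and in *Scd2* 0.51 and 0.09. The same order held for 61.5% of the 6877 genes with such exons (medians 0.07 and -0.03). The share of exon counts in the last exon ran from 72.2% to 77.3% in FXR+/+ and from 73.5% to 76.0% in FXR-/- libraries, lowest in the male 1 library of both genotypes. The part of this coverage in the gene values was not tested.

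Markers of the other cells of islets and pancreas are given beside these values. Of the listed markers 0 were called by edgeR, with or without the replicate block, and 3 by DESeq2, all with higher values in FXR-/- islets. *Mafa*, a beta cell transcription factor, had 314, 317 and 324 CPM in FXR+/+ and 446, 477 and 495 CPM in FXR-/- islets (log2 fold change 0.57, adjusted p = 0.217 by edgeR and 9.68e-11 by DESeq2). The endothelial gene *Plvap* (0.69, adjusted p = 0.00914 by DESeq2) and *Spp1*, listed as a ductal marker (1.08, adjusted p = 0.00159 by DESeq2), were the other two. Of 21 acinar markers 19 were higher in FXR-/- islets (48717 to 146410 CPM in sum in FXR+/+, 69241 to 166770 CPM in FXR-/-). With a term for acinar RNA the median log2 fold change of the 36 genes was 0.12, as without it. The number higher in FXR-/- islets moved from 23 to 27 with this term, and single genes turned sign. The part of acinar RNA in the values of the 36 genes was not tested further. All 6 endothelial markers (435 to 538 CPM against 547 to 878 CPM), all 6 glial markers (11.6 to 17.9 CPM against 18.9 to 20.5 CPM) and all 7 fibroblast and stellate markers (42.3 to 149.6 CPM against 119 to 144 CPM) had positive log2 fold changes, and 6 of 8 macrophage markers were (111 to 149.6 CPM against 148 to 175 CPM). Their part in the values of the 36 genes was not tested. Of 10 beta cell markers 6 were higher and 4 lower, of 7 alpha cell markers 6 were higher and 1 lower, and of 5 tested ductal markers 3 were higher and 2 lower. Fat tissue around islets expresses many of the 36 genes strongly. Of 11 listed adipocyte markers, 8 were in the table and 5 of these were under 1 CPM in every library, among them *Plin1*, *Cidec* and *Cfd*, and the sum of the list, 8.52 to 11.0 CPM in FXR+/+ and 10.8 to 18.7 CPM in FXR-/-, was mostly *Fabp4*.

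The sexes were compared in the same fit, female against male with a term for genotype. All 17 enzymes of the mevalonate and sterol branches had lower fitted values in the female libraries, with a median log2 fold change of -0.28, and 31 of the 36 genes did (86.1%, against 50.6% of all genes; median -0.22, against -0.003). The 41 further genes of the same pathways did not share this, with 24 higher and 17 lower in the female libraries and a median log2 fold change of 0.017. By edgeR 0 of the 36 were called, where 8 of all genes were (0.0547%), and 10 of the 36 had an unadjusted p under 0.05 (27.8%, against 7.48% of all genes). DESeq2 called 2 of the 36, *Insig1* and *Abca1*, against 83 of 14052 genes (0.591%). There were 2 female and 4 male libraries, and both female libraries carry the same number, so sex cannot be told apart from anything else those libraries share.

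The female libraries lay below all 4 male libraries for 10 of the 36 genes (27.8%, against 8.04% of all genes) and above them for *Abca1* and *Elovl5* (5.56%, against 7.86%). Of the 10 genes, 8 were enzymes of cholesterol synthesis: *Pmvk*, *Mvd*, *Fdft1*, *Lss*, *Cyp51*, *Msmo1*, *Ebp* and *Sc5d*. The other two were *Insig1* and *Mlxipl*. Within FXR+/+ islets the female library was below both males for 20 of the 36 genes (55.6%, against 28.7% of all genes), and within FXR-/- islets for 27 (75%, against 36.35%), among them all 17 cholesterol enzymes.

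**Figure D5:**
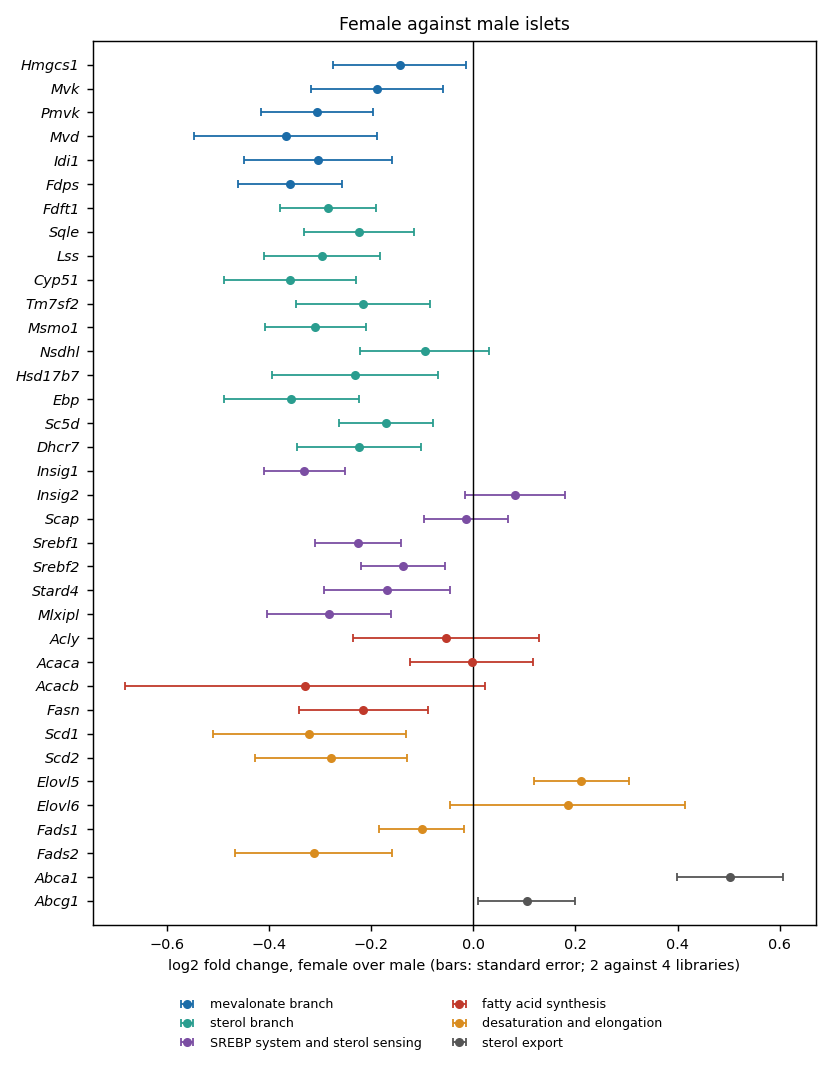
Log2 fold change of each of the 36 genes in female over male islets, coloured by role, with bars for the standard error from edgeR's fit with a term for genotype (2 against 4 libraries). All 17 cholesterol synthesis enzymes lie below 0, and *Abca1* has the highest value, 0.50.

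*Fdft1* had 47.2 and 40.1 CPM in the female libraries (FXR+/+ and FXR-/-) and 52.1, 52.1, 54.1 and 54.1 CPM in the male libraries, a log2 fold change of -0.28 (SE 0.0934, adjusted p = 0.572 by edgeR). *Msmo1*, the C-4 methyl sterol oxidase, had 48.3 and 42.2 CPM in females and 51.5, 59.5, 56.6 and 56.3 CPM in males (-0.31, SE 0.0987, adjusted p = 0.567 by edgeR). In both genes every male library was above the female ones. *Pmvk* had 14.4 and 15.9 CPM against 17.3, 19.7, 18.8 and 18.9 CPM, and *Lss*, lanosterol synthase, 35.1 and 34.3 CPM against 38.6, 49.4, 40.9 and 41.5 CPM. *Cyp51*, lanosterol 14-demethylase, had 43.7 and 32.1 CPM against 43.8, 52.9, 49.0 and 47.4 CPM, and *Ebp*, a sterol isomerase, 14.8 and 13.5 CPM against 16.5, 16.2, 20.9 and 19.6 CPM. These 4 had log2 fold changes between -0.36 and -0.30. *Fdps* (-0.36, SE 0.103, adjusted p = 0.552 by edgeR) and *Srebf1* (-0.23, SE 0.0848, adjusted p = 0.643 by edgeR) overlapped between the sexes over both genotypes but were lowest in the female library within each genotype.

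*Insig1*, which retains SCAP when sterols are plentiful and is itself an SREBP target, had 117 and 123 CPM in females and 145, 142, 154 and 163 CPM in males. Its log2 fold change was -0.33 (SE 0.0795, adjusted p = 0.504 by edgeR and 0.0217 by DESeq2). *Abca1* went the other way, with 225 and 235 CPM in females against 173, 187, 147 and 146 CPM in males (0.50, SE 0.104, adjusted p = 0.393 by edgeR and 0.0054 by DESeq2). The 4 genes of fatty acid synthesis had log2 fold changes of -0.33 (*Acacb*), -0.22 (*Fasn*), -0.05 (*Acly*) and -0.003 (*Acaca*), with a median of -0.13.

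Alpha cell markers were higher in both female libraries, at 4.04% and 4.12% against 2.28% to 2.70% in the male libraries. A term for alpha cell RNA was added after the values were seen. It left 19 of the 36 genes and 12 of the 17 cholesterol enzymes lower in females, with a median log2 fold change of -0.05. Because the term itself separates the sexes, the fit can hardly tell it apart from sex, and this result cannot decide between them. With scaling by library size alone 24 of the 36 were lower, the median being -0.07, while the median of all genes moved to 0.15. The number was 29 or 30 of 36 when each library was left out in turn.

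Whether the genotype difference itself differed between the sexes was tested with an interaction term. It was called for 0 of the 36 genes, as for 0 of all genes (0.00%) by edgeR, and 0 of the 36 had an unadjusted p under 0.05, against 1.48% of all genes. With 1 female library per genotype this comparison rests on single libraries. The largest interaction values were those of *Acacb* (log2 0.60, SE 0.724), whose FXR-/- over FXR+/+ log2 ratio was 0.89 in the female 1, 0.10 in the male 1 and 0.74 in the male 2 pair, and of *Scd1* (0.58, SE 0.341), with ratios of 0.48, -0.11 and -0.014.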

How the data were processed

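Poly(A)-selected RNA from islets of FXR+/+ and FXR-/- mice was sequenced in 6 libraries. The authors deposited raw counts per gene and per exon, without normalization. HISAT is named in the submitters' processing notes, and the counting rule, build, annotation and use of strand are not given in the sources used here. Of the listed exons of the 36 genes, 91.5% had both ends in common with GENCODE vM21 (GRCm38). The authors' own comparison of the genotypes (means, fold changes, p and q) was not used.

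The 36 genes and all lists were chosen with earlier results of these data known. All 36 genes are named. Values per library are given for genes without overlap between groups, with an unadjusted p under 0.05, or highest or lowest of their role. By rule, other pathway genes are named at an unadjusted p under 0.01, and 5 more are named for groups without overlap.

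Tests used edgeR 4.0.16 in R 4.3.3 on the raw counts (filterByExpr with minimum count 10 and minimum total 15, TMM, glmQLFit and glmQLFTest, terms for sex and genotype), with Benjamini-Hochberg adjustment over all genes tested. Standard errors came from the F statistic. DESeq2 1.42.0 was an alternative. Scripts were tested on simulated data. Intervals assume the fit's 7.43 degrees of freedom. Deviations of same-numbered libraries from their genotype means correlated at 0.373, 0.419 and 0.346 across genes, and those of other pairs at 0.0628 or below. By a chi-square per gene, lower for libraries more alike, the female 1 libraries (15.9) and the male 1 libraries (22.8) lay close. FXR+/+ male 2 lay nearer to FXR+/+ female 1 (38.6) than to FXR-/- male 2 (65.5). The labels do not state a pairing, so it remains uncertain whether the numbers mark true pairs. No pair of libraries agreed within sampling noise.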

Additional observations from a re-analysis of the deposited data

How the results depend on the processing

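The count of called genes between genotypes was 0 of 36 under every alternative run: the replicate block, no sex term, DESeq2, legacy dispersion estimates, 3 other scalings, 2 other filters, males alone, a term for acinar RNA, counts without the 20 most abundant genes, and each library left out. Of all genes, 23 were called with the replicate block, 170 with DESeq2 and 8 with the acinar term. In every other run 0 of all genes were called, so those runs say little about the 36. The replicate block changed no call in the genotype comparison of the 36 genes or their exons, its count being 0 in both, with a lowest adjusted p of 0.164 among genes (*Fdps*) and 0.153 among exons (*Insig1*). The median log2 fold change of the 36 moved from 0.12 to 0.021 with library size alone and to 0.064 in males alone, and it ran from 0.032 (without FXR+/+ male 1) to 0.11 with each library left out. When a female library was left out, the sex term took up the remaining female library. The genotype values of those runs thus rested on the male libraries (medians 0.0645 and 0.0645), and they are not separate from males alone (0.0642). For females against males, DESeq2 called 2 genes where edgeR called 0. The count of genes lower in females moved from 31 to 19 with the term for alpha cell RNA, which itself separates the sexes. The causes of these moves were not tested.

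Among single genes 648 refits were made, of which 38 turned the sign, and none of them was called. With library size alone the log2 fold change was -0.030 for *Pmvk*, -0.084 for *Sqle*, -0.063 for *Insig2* and -0.073 for *Stard4*. In males alone it was 0.0036 for *Idi1*, 0.053 for *Fdft1*, 0.024 for *Msmo1*, -0.070 for *Scd1* and 0.0026 for *Elovl5*. With the acinar term it was 0.059 for *Idi1*, 0.030 for *Lss*, 0.094 for *Acly* and 0.044 for *Elovl6*. With each library left out the values ran from -0.19 to 0.074 for *Idi1*, from -0.075 to 0.054 for *Fdft1*, from -0.13 to 0.024 for *Msmo1*, from -0.070 to 0.26 for *Scd1*, from -0.075 to 0.042 for *Elovl5*, from -0.088 to 0.10 for *Sqle*, from -0.044 to 0.079 for *Insig2*, from -0.063 to 0.12 for *Stard4*, from -0.031 to 0.24 for *Scd2*, from -0.17 to 0.040 for *Lss*, from -0.096 to 0.12 for *Acly* and from -0.49 to 0.060 for *Elovl6*. The 8 genes with an unadjusted p under 0.05 by edgeR kept their sign in every refit. They were picked by their p in these same libraries, so this was largely set in advance. Genes with a higher p, among them *Abca1*, *Acacb* and *Mlxipl*, kept their sign as well. Depth limits *Acacb*, *Hsd17b7*, *Mvd* and *Scd1* most, which had the fewest counts.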
